A study of Mus musculus with 2 samples.

Results

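The cells described here are the CD25KO regulatory T cells (Treg cells) that still carry RNA of Il2ra, the gene of the interleukin-2 receptor alpha chain CD25, set against CD25KO cells in which no Il2ra RNA was found. The sets were chosen by the measured Il2ra count of each cell: at least 1 unique molecular identifier (UMI, 1 counted RNA molecule) put a cell in the detected set, and 0 put it in the undetected set. Of the 7530 CD25KO barcodes, 4832 passed the filter (at least 500 detected genes, at most 10% mitochondrial UMIs, 3000 to 10000 total UMIs and no UMI of the B cell gene Cd79a). Of these, 578 were detected and 4254 undetected. The whole series holds 14150 barcodes in 2 libraries. The CD25KO library came from mice of genotype CD25FL/FL-tdTomato+/+-Foxp3eGFPCretERT2+/+, and the CD25WT library, shown beside it, from CD25WT/WT-tdTomato+/+-Foxp3eGFPCretERT2+/+ mice. Both carried the tdTomato reporter and a tamoxifen-inducible Cre expressed with eGFP from Foxp3, and both received tamoxifen (2 mg/kg, intraperitoneal, 5 days). Harvest followed 10 days after induction, with 2 spleens pooled for each library. Live cells were sorted on CD4, GFP and tdTomato, and CD25KO cells were in addition gated as CD25 low at the surface, a gate that CD25WT cells did not go through. Age and sex of the mice, and which exons of Il2ra lie between the loxP sites, are not given in the sources used here.

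With 1 library per genotype and cells that are not replicates of a condition, nothing below is a test. Ratios, levels and shares carry 95% intervals that cover counting error only, and each ratio within CD25KO is a description of sets that the Il2ra count defined. Levels are CPM, the UMIs of a gene per 1000000 UMIs summed over a set. The chemistry reads the 3' end of transcripts. An Il2ra UMI that came from the cell itself, and not from free RNA, shows that the locus was transcribed. It does not show whether the transcript carried the deletion.

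Interleukin-2 is bound with high affinity by a receptor of CD25, the beta chain (Il2rb) and the common gamma chain (Il2rg). The receptor signals through JAK1 and JAK3 to STAT5, which induces Cish, Socs2 and Il2ra itself, so that CD25 is both part of the receptor and one of its targets. Il2ra is also induced through the T cell receptor and NF-kB, and resting (central), effector, tissue-type and follicular Treg cells are known to carry different amounts of CD25.

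The mouse Il2ra gene lies on chromosome 2 from base 11642807 to 11693193 on the plus strand in the GENCODE mouse annotation (GRCm38, the same build as mm10), and its long transcript has 8 exons, the last at 11689758 to 11693193. Promoter sequence is shown for the gene that defines the sets and for the gene with the largest ratio between them, each as the 250 bases before the RefSeq start site (GRCm38.p6). Capitals mark matches on either strand to the NF-kB letters GGGANNNNCC.
Il2ra, chr2:11642542-11642791, plus strand: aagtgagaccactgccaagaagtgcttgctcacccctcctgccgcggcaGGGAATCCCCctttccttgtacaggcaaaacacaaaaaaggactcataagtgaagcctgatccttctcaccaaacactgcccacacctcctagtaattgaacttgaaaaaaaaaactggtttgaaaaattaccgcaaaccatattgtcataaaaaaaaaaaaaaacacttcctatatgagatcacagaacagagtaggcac
Ccl1, chr11:82179813-82180062, minus strand: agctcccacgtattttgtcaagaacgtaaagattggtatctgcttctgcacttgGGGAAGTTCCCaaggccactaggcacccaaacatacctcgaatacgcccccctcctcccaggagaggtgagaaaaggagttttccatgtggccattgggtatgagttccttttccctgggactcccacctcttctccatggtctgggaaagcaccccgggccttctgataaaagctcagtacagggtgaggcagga
Cish, a STAT5 target described below, is shown by the 30 bases at its RefSeq start that hold 2 matches to the STAT letters TTCNNNGAA, in capitals.
Cish, chr9:107296654-107296683, plus strand: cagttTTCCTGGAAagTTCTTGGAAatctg
The Il2ra match starts at base -201 from the start site, and the 2 overlapping Ccl1 matches start at -196 and -195. The Cish matches start at 0 and 11, where 0 is the start base itself. Of 32851 mouse promoter windows of 300 bases, 20.7% held the NF-kB letters, 8.30% the STAT letters and 7.81% the AP-1 letters TGANTCA. Among the 15 genes with the largest ratios, 10 had a window, and 4 of them (Cish, Irf8, Nfkbid and Tnfrsf9) held the STAT letters while 5 (Ccl1, Dusp5, Irf8, Nfkbid and Tnfrsf9) held the NF-kB letters in at least 1 window, and 1 (Tnfrsf9) the AP-1 letters. Among the 12 genes with the smallest ratios, 9 had a window, 0 held the STAT letters 3 (Tbc1d4, Tox2 and Trerf1) the NF-kB letters and 2 (Anxa2 and Slc9a9) the AP-1 letters. A match is a stretch of letters and not a binding site, and genes with several windows had more chances of a match.

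Il2ra RNA was found in 11.96% of CD25KO cells (578 of 4832; 11.1% to 12.9%) and in 35.4% of CD25WT cells under the same filter (1837 of 5195; 34.1% to 36.7%). Of the detected CD25KO cells, 426 held 1 UMI, 116 held 2, 23 held 3, 4 held 4, 4 held 5 and 5 held 6. Detected cells thus sat mostly just inside the threshold, with 1.37 Il2ra UMIs per detected cell against 1.99 in CD25WT. The summed level was 32.4 CPM (30.2 to 34.7) in CD25KO and 128 CPM (124 to 132) in CD25WT.

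Within the filter, the CD25KO share varied little with the depth of the cell. The share was 11.2% in cells of 3000 to 4000 UMIs, 10.2% from 7000 and 15.1% (9.99% to 21.4%) from 9000. In CD25WT it was 20.2% in the shallowest bin and 54.4% in the deepest. The Il2ra level did vary with depth. In CD25KO it was 42.4 CPM in the shallowest bin, 19.1 CPM from 7000 and 26.1 CPM in the deepest. In CD25WT it was 89.0 CPM in the shallowest bin and 148 CPM in the deepest. Outside the limits of the filter, Il2ra was found in 8.99% of 1580 CD25KO cells under 3000 UMIs and in 20.8% of 490 cells above 10000. With every cell thinned to 3000 UMIs, the shares were 8.22% (7.46% to 9.03%) in CD25KO and 24.1% in CD25WT.

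**Figure D1:**
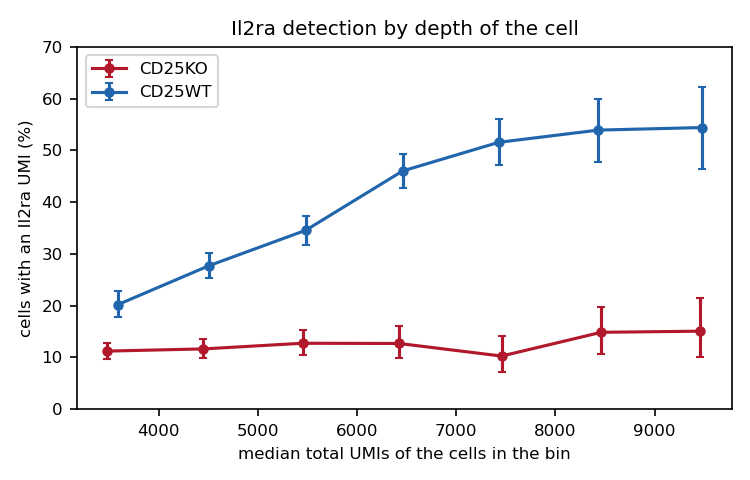
Share of cells with at least 1 Il2ra UMI (%, vertical axis) against the median total UMIs of the cells in each bin of 1000 UMIs, for CD25KO and CD25WT, with 95% Clopper-Pearson intervals. The CD25KO shares lie between 10.2% and 15.1%, and the CD25WT shares between 20.2% and 54.4%.

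Free RNA in droplets was read from cells that should lack the gene. None of 58 CD25KO cells with no UMI of Cd3d, Cd3e, Cd3g or Cd4 held Il2ra, which allows a share of up to 5.17%, and their median depth was 2377 UMIs. The 26 of them with 3000 to 10000 UMIs allow up to 11.5%, beside the 11.96% of all CD25KO cells that passed. In CD25WT, 2 of 24 such cells held Il2ra. None of 21 CD25KO cells with 2 or more B cell genes and no T cell chain held it (up to 14.3%; median 3555 UMIs). Cells with a Cd79a UMI, which the filter removed, held Il2ra in 7 of 50 cases (14.0%; 5.82% to 26.7%), and all 7 were among the 30 that also held a T cell chain UMI. The follicular regulatory-like cluster described below, at a median of 4644.5 UMIs, held Il2ra in 1 of 236 cells. As the cluster with the lowest Il2ra share in these same data, it gives no independent measure of free RNA.

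Detected and undetected cells were close in library measures. Their median depths were 4704.5 and 4583.5 UMIs, their median gene numbers 1658 and 1673, and their median mitochondrial shares 4.45% and 4.69%. Ribosomal protein genes took 32.5% and 31.4% of UMIs. Doublets were not removed, because Scrublet called 1 barcode. The 527 barcodes of highest doublet score took in 7.61% of detected and 7.87% of undetected cells. Across the 2 libraries 107 barcode sequences were shared.

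The T cell chain Cd3e was found in 96.5% of detected and 95.8% of undetected cells, and at least 1 of the Treg genes Foxp3, Ikzf2, Ctla4 and Tnfrsf18 in 93.8% and 92.4%. Defining markers of other lineages were found in few cells of both sets: Cd8a in 0.519% and 0.353%, the gamma delta T cell gene Trdc in 0.519% and 0.329%, the myeloid gene Lyz2 in 0.346% and 0.212%, and the NK cell gene Ncr1 in 0 detected cells and 1 undetected cell. Other genes of those lists were found more often, at similar shares in both sets: Cd8b1 in 5.71% of detected and 5.12% of undetected cells, Hpgds in 2.94% and 2.54%, Cd79b in 9.86% and 8.32%, Cd74 in 27.5% and 26.6%, and Ighm in 62.3% and 62.7%. Their part in the ratios below was not tested beyond 1 setting that left out cells with other-lineage markers. That setting used Cd79b, Ms4a1, Lyz2, Cd8a, Cd8b1, Hbb-bs, Hba-a1, Tyrobp and Trdc, and Hbb-bs alone was found in 19.9% of detected and 21.9% of undetected cells. Cells with Hpgds, Cd74 or Ighm were not left out for those genes. The CD8 and NK or innate lymphoid cell lists summed to 14.7 and 21.7 CPM in detected cells and to 20.2 and 31.7 CPM in undetected cells, with none of their members reaching 20 CPM.

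Genes were counted where their mean over both sets reached 20 CPM, which held for 5311 genes without Il2ra. Of these, 55 were at least 1.5-fold higher in detected CD25KO cells (1.04%) and 30 at least 1.5-fold lower (0.565%), and the median log2 ratio of all 5311 was -0.01. The same split in CD25WT gave 27 of 4677 genes higher (0.577%) and 41 lower (0.877%), with a median of -0.06. Member counts of the gene lists below are to be read against these shares. The lists share members, so their counts are not independent of one another. Tnfrsf9 is on the IL-2 and STAT5 responsive, Treg identity, TNF receptor superfamily and T cell receptor activation lists. Il1rl1, Il10, Gzmb, Klrg1, Irf4, Itgae, Tnfrsf4 and Myc are likewise shared between lists.

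Detected cells carried more RNA of IL-2 and STAT5 responsive genes. Of 18 measured members of that list 8 were at least 1.5-fold higher (Cish, Socs2, Myc, Pim1, Il1rl1, Gzmb, Tnfrsf4 and Tnfrsf9) and 0 lower, with a median log2 ratio of 0.48. Cish, the feedback inhibitor of cytokine receptors, stood at 66.4 CPM in detected and 34.5 CPM in undetected cells (log2 ratio 0.95; 0.71 to 1.17). Socs2, another inhibitor of the same family, stood at 38.4 and 17.8 CPM (1.11; 0.79 to 1.41). These are among the most direct readouts of STAT5 activity. Bcl2, a survival gene, stood at 235 and 177 CPM (0.41; 0.29 to 0.52), and Lrrc32, which encodes the TGF-beta docking receptor GARP, at 20.7 and 8.37 CPM (1.30; 0.86 to 1.73), a mean under the 20 CPM needed to be counted. With every cell thinned to 3000 UMIs the Socs2 ratio was 0.55 and that of Cish 1.07. Among the 486 cells with a Foxp3 UMI, of which 89 were detected, Cish stood at 0.05, Socs2 at 0.35, Myc at -0.23 and Lrrc32 at 2.09.

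The other receptor chains differed little. Il2rb was at 215 CPM in detected and 194 CPM in undetected cells (log2 ratio 0.15; 0.03 to 0.27), and Il2rg at 331 and 308 CPM (0.10; 0.01 to 0.20). None of the 8 measured genes of the receptor chains and proximal signalling was 1.5-fold apart, and their median was 0.07. Among cells with a Foxp3 UMI the ratios of Il2rb and Il2rg were -0.30 and -0.12. In CD25WT the Il2rb ratio was 0.68 (0.60 to 0.76), above the interval of CD25KO.

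Foxp3, the transcription factor that defines Treg cells, stood at 33.0 CPM in detected and 20.9 CPM in undetected cells (log2 ratio 0.66; 0.33 to 0.98). A Foxp3 UMI was present in 15.4% of detected and 9.33% of undetected cells, so most cells of both sets, although sorted on Foxp3-driven GFP, lacked one. Read the other way, Il2ra was found in 18.3% of the 486 cells with a Foxp3 UMI and in 11.3% of those without. Ikzf2, the gene of Helios, was slightly lower in detected cells (-0.24; -0.28 to -0.19), and Ctla4, a suppressive receptor, slightly higher (0.19; 0.06 to 0.33), although among cells with a Foxp3 UMI its ratio was -0.32. Of 17 measured Treg identity genes 5 were 1.5-fold higher (Foxp3, Tnfrsf4, Tnfrsf9, Itgae and Il10), 0 were lower, and the median was 0.12.

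Genes of tissue-type and effector Treg cells included several of the largest ratios. Il1rl1, which encodes the IL-33 receptor ST2, stood at 39.4 CPM in detected and 14.1 CPM in undetected cells (log2 ratio 1.48; 1.16 to 1.79), with a UMI in 58 of 578 and 176 of 4254 cells. Areg, the repair factor amphiregulin, stood at 35.0 and 14.6 CPM (1.27; 0.93 to 1.59), and Klrg1, a receptor of terminally differentiated cells, at 29.0 and 14.0 CPM (1.05; 0.69 to 1.40). The ST2 tissue-type list had 4 of 11 measured members higher (those 3 and Il10), 0 lower and a median of 0.30. Among cells with a Foxp3 UMI the Klrg1 ratio was 0.25.

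Il10, a suppressive cytokine, had a log2 ratio of 3.02 (2.63 to 3.41) that rested on few cells. It was found in 25 detected cells (4.33%; 2.82% to 6.32%) and 66 undetected cells (1.55%; 1.20% to 1.97%), and the highest detected cells held 19, 18, 16 and 14 UMIs while the highest undetected cell held 7. Without the top cell of each set the ratio was 2.87. Ccl1, a chemokine gene, had the largest ratio of all (4.26; 3.84 to 4.70) on still fewer cells: 7 detected cells held its 174 UMIs, 136 of them in 2 cells with 71 and 65, while 19 undetected cells held 65. Without the top cell of each set its ratio was 3.97, and in CD25WT 69 of the 70 Ccl1 UMIs of detected cells lay in 1 cell.

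The wider effector list did not move as 1 group, with 5 of 21 measured members higher (Klrg1, Gzmb, Ccr2, Itgae and Irf4), 1 lower (Anxa2) and a median of 0.10. Ccr2, a chemokine receptor of activated cells, stood at 92.1 CPM in detected and 50.8 CPM in undetected cells (log2 ratio 0.86; 0.66 to 1.05). Gzmb, the gene of the cytotoxic protease granzyme B, stood at 48.4 and 29.1 CPM (0.73), but 39 of its 145 UMIs in detected cells lay in 1 cell. Without the top cell of each set the Gzmb ratio was 0.39, under 1.5-fold. Anxa2, a membrane-binding protein gene, went the other way, at 54.4 and 103 CPM (-0.93; -1.16 to -0.70). Of the Th1-type list, Cxcr6 (0.69) and Ifngr1 (0.63) were higher and Cxcr3, the receptor of interferon-induced chemokines, was lower at 58.4 and 99.4 CPM (-0.77). Among cells with a Foxp3 UMI the ratios of Ccr2, Cxcr6 and Ifngr1 were -0.20, -0.53 and -0.06.

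Genes induced through the T cell receptor and NF-kB were higher in part. Of 19 measured T cell receptor activation genes 6 were higher (Nr4a1, Egr3, Irf4, Ikzf3, Dusp5 and Tnfrsf9), 0 lower, and the median was 0.19. Nr4a1, an early-response nuclear receptor, stood at 44.4 CPM in detected and 17.2 CPM in undetected cells (log2 ratio 1.37; 1.07 to 1.66). Of 18 measured NF-kB pathway genes 3 were higher (Nfkbid, Tnfaip3 and Rel), with a median of 0.20. Nfkbid, the atypical inhibitor known to promote Foxp3 expression, stood at 69.7 and 33.5 CPM (1.06; 0.83 to 1.28), and Rel, the gene of c-Rel, at 117 and 74.7 CPM (0.65; 0.48 to 0.82). Of 8 measured TNF receptor superfamily genes 2 were higher: Tnfrsf4, the gene of OX40, at 524 and 346 CPM (0.60; 0.52 to 0.68), and Tnfrsf9, the gene of 4-1BB, at 111 and 60.2 CPM (0.88; 0.70 to 1.06). Tnfrsf4 was found at similar shares, in 56.1% of detected and 54.7% of undetected cells. Its ratio was 0.53 without the top cell of each set, and it stayed 1.5-fold in 9 of 18 other settings. The dissociation stress list, which shares early-response genes with these lists, had 0 of 12 members 1.5-fold apart and a median of 0.14, and its part in these ratios was not tested. Among cells with a Foxp3 UMI the ratios of Tnfrsf9, Tnfaip3 and Rel were 0.35, 0.18 and 0.12, under 1.5-fold, and that of Nfkbid was 1.56.

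All 18 measured genes of Myc and ribosome biogenesis had log2 ratios above 0 in detected cells, from 0.15 to 1.39, and 4 were 1.5-fold higher (Myc, Nop16, Mybbp1a and Srm). Their median was 0.44. Myc itself, the growth regulator, stood at 31.7 CPM in detected and 12.05 CPM in undetected cells (1.39; 1.04 to 1.74). Srm, the spermidine synthase gene, stood at 30.7 and 15.1 CPM (1.02; 0.67 to 1.36). Glycolysis genes did not follow: 0 of 12 were 1.5-fold higher, 1 was lower (Tpi1, -0.59) and the median was -0.14.

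Several genes of follicular regulatory cells, which restrain germinal centres, were lower in detected cells, and one of them had the lowest ratio of all genes counted. Sostdc1, a secreted antagonist of BMP and Wnt signals, stood at 17.7 CPM in detected and 129 CPM in undetected cells (log2 ratio -2.86; -3.28 to -2.47), with a UMI in 7 detected and 322 undetected cells. Tox2, a transcription factor of follicular helper and regulatory cells, stood at 18.7 and 55.1 CPM (-1.56; -1.97 to -1.17), and Sh2d1a, the gene of the adaptor SAP, at 276 and 462 CPM (-0.74; -0.85 to -0.64). Of 13 measured follicular regulatory genes 3 were lower (those named), 0 higher, and the median was -0.31. Pdcd1, the gene of PD-1, had a ratio of -0.55 (-0.75 to -0.35), and Cxcr5, the receptor that directs cells to follicles, one of -0.85 (-1.42 to -0.32) at 10.3 and 18.6 CPM, under the level needed to be counted. With cells of more than 5% mitochondrial UMIs left out, the Cxcr5 ratio was 0.21.

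None of the 17 measured central and resting Treg genes was 1.5-fold apart (median 0.07), while 8 had intervals above 0 and 3 below. Ccr7, the lymph node homing receptor, had a log2 ratio of 0.26 (0.05 to 0.45), Igfbp4, a marker of naive T cells, one of 0.32 (-0.12 to 0.73; -0.85 in cells with 2 or more Il2ra UMIs against 0), and Tcf7, the gene of TCF-1, one of -0.43 (-0.56 to -0.31). None of the 8 measured cell cycle genes was 1.5-fold apart (median -0.04), and Mki67 was at 16.0 and 14.7 CPM (0.12; -0.35 to 0.56), with a ratio of -1.07 when cells were thinned. Of 25 interferon response genes 1 was higher (Gbp3, 0.64).

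Haemoglobin genes also lay among the lowest ratios (-2.48 to -2.28), and they took 0.0128% of UMIs in detected and 0.0657% in undetected cells. Of the 7514 Hbb-bs UMIs of undetected cells 4239 lay in 2 cells, and Hbb-bs was found in 19.9% of detected and 21.9% of undetected cells. With cells carrying other-lineage markers left out, the Hba-a2 ratio was 0.05. Those markers include Hbb-bs and Hba-a1, so this value comes from cells selected for lacking other haemoglobin RNA and is no check of the ratio. The immunoglobulin gene Igkc was likewise lower, at 11.3 and 44.1 CPM (-1.96; -2.50 to -1.47).

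CD25KO cells were clustered without Il2ra among the features, which gave 12 clusters, and the share of cells with Il2ra ran from 0.424% to 26.1% among them. Only clusters whose leading genes matched 1 set of markers were named. The highest share belonged to an unnamed cluster of 157 cells led by the ribosome biogenesis genes Srm, Mettl1 and Nop16 together with Penk, Ccl1 and Tnfrsf9 (41 cells, 26.1%; 19.4% to 33.7%). Its cells were deep, at a median of 6410 UMIs. Ccl1 was found in 26 CD25KO cells, of which 14 lay in the cluster led by Lilrb4a and 7 in the recently stimulated-like cluster, both described below. An unnamed cluster of 432 cells led by Ift80, Zfp827, Jun, Gpr83 and Gbp2 followed with 98 cells (22.7%; 18.8% to 26.9%) at a median of only 4272.5 UMIs. With all cells thinned to 3000 UMIs both clusters stood at 15.3%.

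Below them, the interferon-response-like cluster had Il2ra in 10 of 49 cells (20.4%; 10.2% to 34.3%) and the central-like cluster, led by Igfbp4, Ly6c1 and Dapl1, in 111 of 712 (15.6%; 12.1% when thinned to 3000 UMIs, 9.78% to 14.7%). An unnamed cluster led by Ifitm1, Ifitm3 and cell cycle genes stood at 15.4% of 344 cells, and one led by Lilrb4a, Fgl2, Klrg1 and Ccl5 at 13.7% of 577. The intervals of these 4 overlapped one another. The recently stimulated-like cluster, led by Egr3, Egr2 and Nr4a1, stood at 10.7% of 523 cells (8.19% to 13.7%).

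Low shares were found in 3 unnamed clusters, at 7.80% of 769 cells led by Klf2, Nebl and S1pr1, 7.14% of 504 led by Capn3, Mgmt and Nrn1, and 6.05% of 512 led by Bicd1, Trim2 and Ttn. Their intervals also overlapped. The follicular regulatory-like cluster, led by Sostdc1, Ascl2, Cebpa and Il4 with Cxcr5, held Il2ra in 1 of 236 cells (0.424%; 0.0107% to 2.34%), below the interval of every other cluster of at least 49 cells. Further leading genes of this cluster were Bcl6, Il21 and Pdcd1. Whether its cells were follicular regulatory or follicular helper cells was not tested. A last cluster of 17 cells, led by class II and C1q genes of myeloid cells, held it in 2.

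The detected cells were spread over these clusters: the central-like cluster held 19.2% of them, the one led by Ift80 17.0%, the one led by Lilrb4a 13.7%, the one led by Klf2 10.4% and the recently stimulated-like cluster 9.69%. No cluster held most of them. Other cluster settings kept a follicular regulatory-like cluster with a low share where they separated one, at 1 of 243 cells with a resolution of 1.5 and 2 of 272 with 15 components. At a resolution of 0.5 and with 50 components no such cluster was separated. High shares also depended on the setting. A cluster led by Srm stood at 26.4% with a resolution of 1.5 and 28.1% with 50 components. No cluster was led by Srm at a resolution of 0.5 or with 15 components. One led by Ift80 stood at 23.4% with a resolution of 1.5 and 20.7% with 15 components. Ift80 was instead a leading gene of 1309 cells at 10.7% (resolution 0.5) and 660 at 11.8% (50 components). The interferon-response-like share was 10 of 83 cells at a resolution of 1.5.

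**Figure D2:**
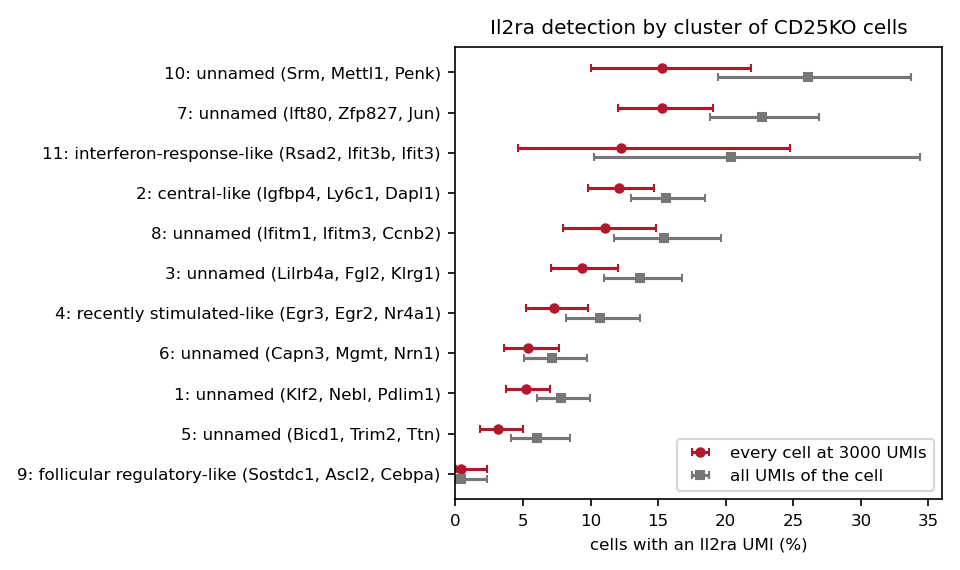
Share of CD25KO cells with at least 1 Il2ra UMI (%, horizontal axis) in each cluster of at least 49 cells, with all UMIs (squares) and with every cell thinned to 3000 UMIs (circles), and 95% Clopper-Pearson intervals. Thinned shares run from 0.424% in the follicular regulatory-like cluster to 15.3% in the clusters led by Srm and by Ift80.

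Over the 10 largest T cell clusters, the genes whose CPM followed the Il2ra share most closely were Gbp2 (Spearman 0.95), Rdx (0.82), Nampt (0.81), Tuba4a (0.81) and Aimp1 (0.78). These values describe 10 points from 1 library that share its depth differences.

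The share was also taken among cells in which a given gene was detected, with every cell thinned to 3000 UMIs. Il2ra was found in 8.22% of all cells, in 23.5% of the 68 with Il10 (14.1% to 35.4%), in 17.8% of the 169 with Il1rl1 (12.3% to 24.4%), in 16.8% of the 125 with Klrg1 and in 16.5% of the 127 with Areg. Cells with Cish stood at 15.2% (12.1% to 18.8%), with Nfkbid at 13.8%, with Lrrc32 at 13.5% and with Foxp3 at 12.3% (8.94% to 16.4%). Cells with Gpr83 (10.7%; 7.08% to 15.2%) and Socs2 (9.70%; 6.25% to 14.2%) had intervals that held the average. Cells with Ccr7 stood at 9.63%, with Ccl5 at 8.60% and with Penk at 8.18%. Below the average stood cells with Cxcr3 (5.21%; 3.88% to 6.83%), Cxcr5 (3.49%), Tox2 (3.29%) and Sostdc1 (3 of 303 cells, 0.990%; 0.205% to 2.87%). In CD25WT, against 24.1% of all cells, the shares were 51.6% with Lrrc32, 37.0% with Cish, 34.1% with Foxp3, 12.4% with Cxcr3 and 2.83% with Sostdc1.

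**Figure D3:**
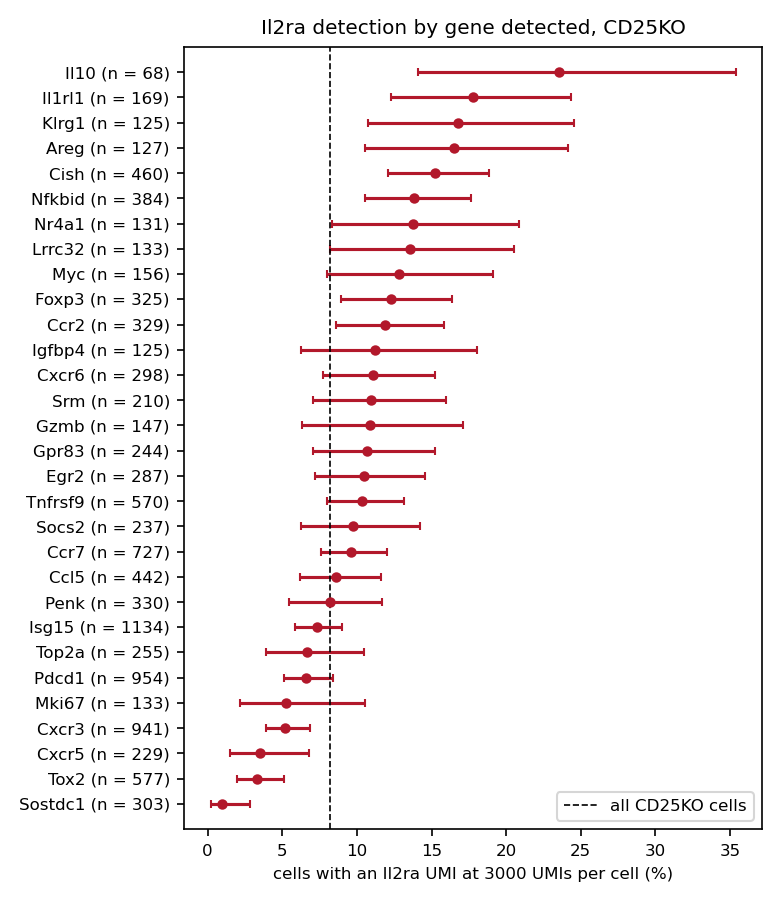
Share of CD25KO cells with an Il2ra UMI (%, horizontal axis) among cells that hold at least 1 UMI of the gene on the left, all cells thinned to 3000 UMIs, with 95% Clopper-Pearson intervals. The dashed line marks the 8.22% of all cells, with Il10 highest at 23.5% and Sostdc1 lowest at 0.990%.

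The ratios were also taken in steps of the Il2ra count, over cells with 0, 1, 2 and at least 3 UMIs (4254, 426, 116 and 36 cells). Cish stood at 34.5, 52.4, 91.5 and 133 CPM along these steps, Socs2 at 17.8, 34.3, 41.7 and 69.0 CPM, and Lrrc32 at 8.37, 15.8, 28.9 and 46.0 CPM. Each step was higher than the one before for these 3 STAT5 responsive genes, and also for Myc (12.05, 27.8, 36.9 and 55.2 CPM). Tnfrsf4 stood at 346, 420, 738 and 939 CPM and Nfkbid at 33.5, 57.5, 72.2 and 184 CPM, although the last Nfkbid value came from 8 of 36 cells. Lower at each step were Sh2d1a (462, 303, 215 and 189 CPM), Cxcr3 (99.4, 65.3, 43.3 and 32.2 CPM) and Sostdc1 (129, 23.2, 4.82 and 0 CPM). Foxp3 had no such order beyond the first step (20.9, 32.9, 35.3 and 27.6 CPM), and neither had Il10 (4.98, 45.4, 28.9 and 23.0 CPM). The cells with at least 3 Il2ra UMIs were deeper, at a median of 5951.5 UMIs. They are only 36 cells, and whether neighbouring steps differ beyond counting error was not tested. Cish, Socs2, Myc, Nfkbid, Sh2d1a, Cxcr3 and Sostdc1 were named for their ratio of detected over undetected cells, so the direction of their first step largely follows from that choice.

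**Figure D4:**
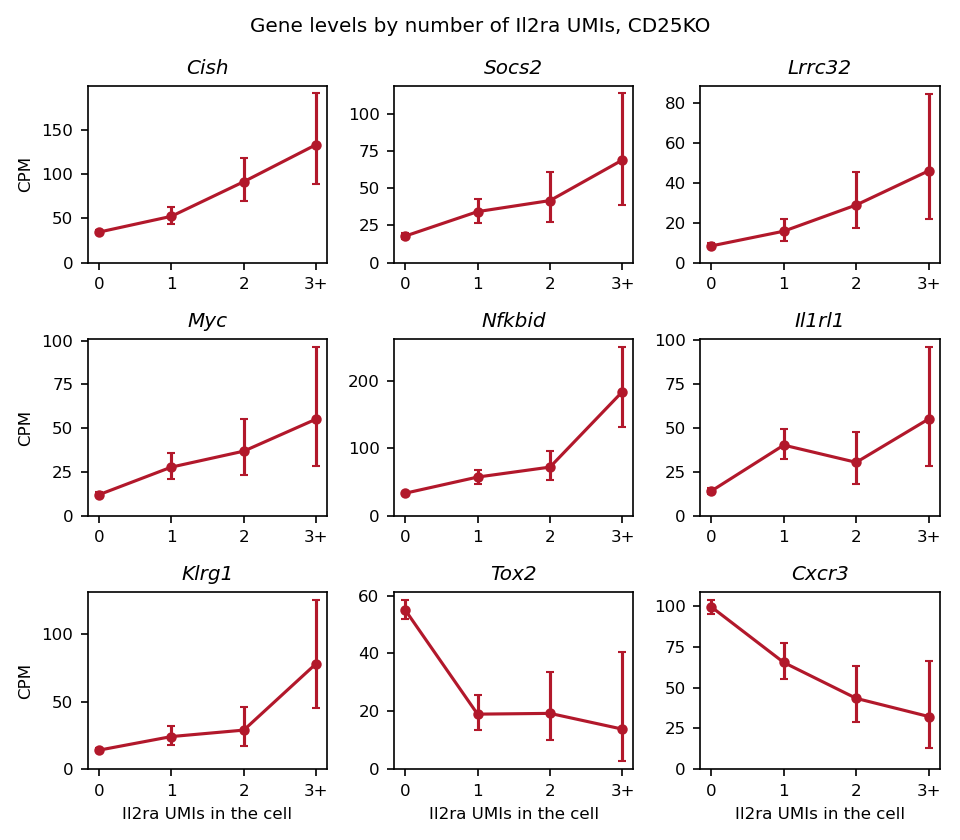
CPM of 9 genes (vertical axes) in CD25KO cells with 0, 1, 2 and at least 3 Il2ra UMIs (horizontal axes), with exact 95% Poisson intervals. Cish, Socs2, Lrrc32, Myc and Nfkbid are higher at every step, and Cxcr3 is lower at every step.

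Part of these ratios moved with the cluster of the cell. With undetected cells weighted to the cluster mix of detected cells, the 1.5-fold threshold was passed upward by 31 genes and downward by 15. The log2 ratio of Cish was then 0.80, of Socs2 1.03, of Il1rl1 1.45, of Il10 2.93, of Nfkbid 0.97, of Lrrc32 1.11 and of Foxp3 0.61, each within 0.2 of its unweighted value. Srm went from 1.02 to 0.39, Myc from 1.39 to 1.03, Pdcd1 from -0.55 to -0.12, Cxcr5 from -0.85 to -0.11 and Sostdc1 from -2.86 to -2.00.

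Within the 9 clusters that held at least 20 detected cells, the ratios of Foxp3, Lrrc32, Nfkbid and Il4ra were above 0 in 9 of 9. They were the only ones of 96 named genes to be so, and Plekho1 was below 0 in all 9. Their lowest cluster ratios were close to 0, at 0.02, 0.03, 0.006 and 0.06. Lrrc32 had only 62 UMIs over all detected cells, so signs in single clusters rest on few UMIs. Socs2 was above 0 in 7, Cish in 6 and Il1rl1 in 5 of the 9. The 4 clusters in which Il1rl1 lay below 0 held 0 of its UMIs in detected cells and at most 3 in undetected cells. Its UMIs lay mainly in 3 others: detected and undetected cells stood at 156 and 62.3 CPM in the cluster led by Ifitm1, 93.2 and 32.3 CPM in the one led by Lilrb4a, and 65.5 and 20.5 CPM in the one led by Klf2. In the recently stimulated-like cluster, Cish was at 132 and 34.4 CPM and Nfkbid at 333 and 135 CPM. In the central-like cluster Cish did not differ (21.0 and 21.2 CPM), while in the cluster led by Ift80, with its high Il2ra share, it was lower in detected cells (24.9 and 35.98 CPM, from 12 and 57 UMIs).

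The same split by Il2ra was made in CD25WT, whose cells did not enter the ratios that ranked the genes, although the lists and fixed genes were chosen with earlier results of both libraries known. Over 4611 genes counted in both libraries, the log2 ratios correlated across genes at Pearson 0.50 and Spearman 0.41, where genes are not independent replicates. Of the 32 of these genes that were 1.5-fold higher in detected CD25KO cells, 27 were above 0 in CD25WT, where 33.8% of all genes were, and 5 were also 1.5-fold higher. All 18 that were lower in CD25KO were below 0 in CD25WT, where most of the 4611 genes lay, and 8 of them by 1.5-fold. Over all 4611 genes, 20 were 1.5-fold higher and 40 were 1.5-fold lower in CD25WT.

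Several IL-2 and STAT5 responsive genes stood out in both libraries. In CD25WT the log2 ratio of Cish was 1.12 (0.97 to 1.27), of Socs2 1.51 (1.32 to 1.69), of Myc 1.44 (1.26 to 1.62) and of Lrrc32 1.98 (1.74 to 2.22). Of 16 measured members of the list 7 were 1.5-fold higher there, and the list's median was 0.40. Tnfrsf4 (0.17), Il1rl1 (0.07) and Tnfrsf9 (-0.20), higher in CD25KO, were not 1.5-fold higher in CD25WT. Foxp3, which is not on that list, stood at 0.85 (0.67 to 1.02). The follicular genes were low in both, with Sostdc1 at -4.55 and Tox2 at -2.14 in CD25WT and a list median of -0.39. Values of other genes lay apart in the libraries, a difference that was not tested. Nfkbid stood at -0.18 (-0.41 to 0.05) in CD25WT, Tnfrsf9 at -0.20 (-0.40 to -0.01), Tnfaip3 at -0.29 (-0.52 to -0.06) and Il1rl1 at 0.07 (-0.51 to 0.64), and the list medians were -0.11 for 15 measured genes of the NF-kB pathway and -0.27 for 13 of T cell receptor activation. The ST2 tissue-type list (5 measured genes in CD25WT, 11 in CD25KO) and the effector list (13 and 21) had medians of -0.34 and -0.67 there, but over fewer members, and Il1rl1, Il10, Areg and Klrg1 did not reach 20 CPM in CD25WT. Areg, with 59 UMIs in all CD25WT cells that passed the filter, had a ratio of -0.64 (-1.54 to 0.21) there, below its CD25KO interval. Il10, Klrg1 and Gzmb had 8, 29 and 22 UMIs, too few to place their ratios. Because only the CD25KO cells were gated as CD25 low, genotype and gate cannot be told apart in these differences.

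**Figure D5:**
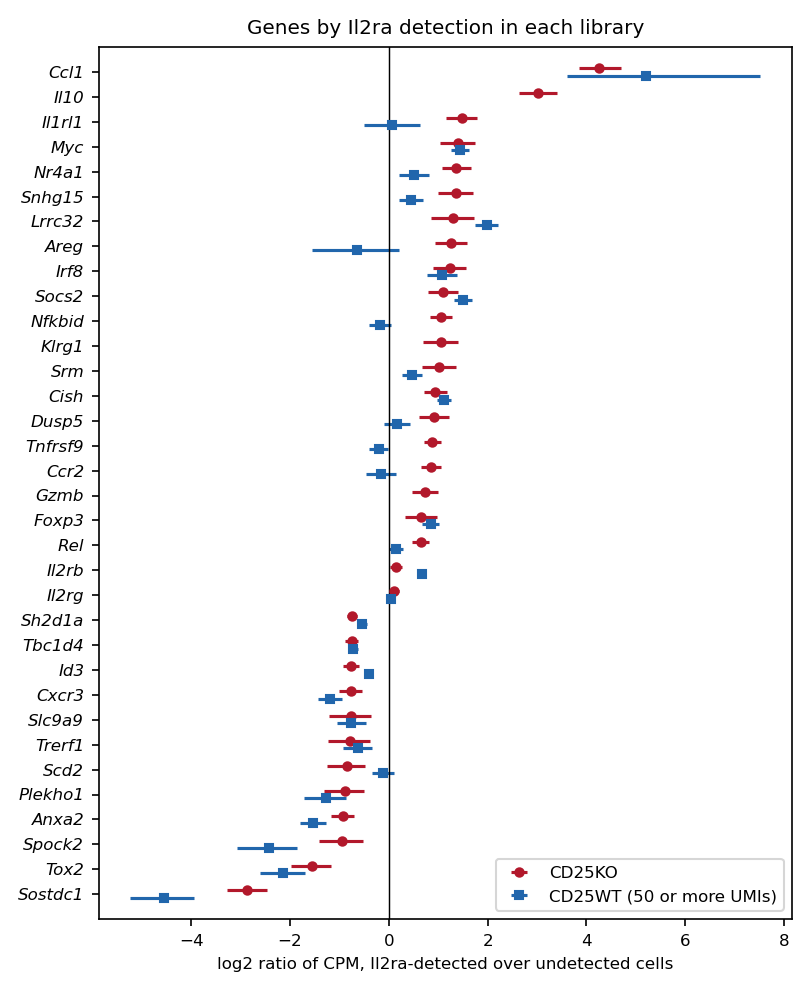
Log2 ratio of CPM in Il2ra-detected over undetected cells (horizontal axis) for the genes with the 15 largest and 12 smallest ratios in CD25KO and 7 others, in CD25KO (circles) and, for genes with at least 50 UMIs, CD25WT (squares), with exact 95% counting intervals. Cish, Socs2, Myc, Lrrc32 and Foxp3 lie above 0 in both libraries, and Tnfrsf9 lies above 0 in CD25KO and below 0 in CD25WT.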

How the data were processed

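Sorted splenic Treg cells of each genotype gave 1 library with the 10x Chromium 3' chemistry, per the labels' protocols. The deposited files hold UMI counts per gene and barcode for 32285 genes, not normalized by the authors, and per the file headers Cell Ranger 6.0.0 produced them. The build is mm10 per the submitters' processing notes. The gene annotation behind the counts is not given in the sources. The libraries hold 36986849 (CD25KO) and 36971834 (CD25WT) UMIs, of which 24493625 and 28639499 lay in cells that passed the filter. In CD25KO 6952 cells passed the limits on genes and mitochondrial UMIs, of which 1588 lay under 3000 UMIs, 493 above 10000, and 39 more held Cd79a.

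UMIs were summed over each set of cells and scaled to CPM, every gene counting toward the total. The 95% intervals are Clopper-Pearson for shares, exact Poisson for levels and exact conditional (binomial) for ratios. A count of 0 allows up to 3 counts of the total. The ratios and their intervals were tested on simulated counts with known fold changes. Clusters came from 2000 highly variable genes, 30 principal components, 15 shared neighbours and Leiden partitioning at resolution 1 with leidenalg 0.10.2. A cluster was named where at least 2 of its 10 leading genes were markers of 1 class and no other class had 2, a rule set with the clusters in view. Scrublet was run in Scanpy 1.11.5, and TMM factors came from edgeR 4.0.16. Named genes are the 15 largest and 12 smallest ratios at 20 CPM or more whose interval excludes 0 and whose direction held with undetected cells weighted to the depth of detected ones, leaving out receptor and immunoglobulin segments and mitochondrial, ribosomal protein, haemoglobin and unnamed genes, then 18 genes of interest and up to 4 members of each of 27 lists. The members, lists and alternatives were chosen with earlier results of these data known.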

Additional observations from a re-analysis of the deposited data

Results flagged for a closer look

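For 2 genes the split by Il2ra pointed in opposite directions in the libraries, with both counting intervals excluding 0. Tnfrsf9, the gene of 4-1BB, had a log2 ratio of detected over undetected cells of 0.88 in CD25KO and -0.20 in CD25WT. Tnfaip3, the gene of the NF-kB inhibitor A20, had one of 0.67 in CD25KO (51.7 and 32.5 CPM) and -0.29 in CD25WT. The difference between the libraries was not tested, since each genotype has 1 library.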

How the results depend on the processing

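The share of cells with Il2ra was 8.22% with every cell thinned to 3000 UMIs, 13.1% with at most 5% mitochondrial UMIs and 18.3% in cells with a Foxp3 UMI. Against 55 genes at least 1.5-fold higher and 30 lower, thinning gave 101 and 115, a threshold of 2 or more Il2ra UMIs 306 and 173, leaving out cells with other-lineage markers 83 and 64, Foxp3-positive cells alone 286 and 398, the same cluster mix 31 and 15, a mean of at least 10 CPM 114 and 82, and of at least 50 CPM 11 and 12. At most 5% mitochondrial UMIs gave 83 higher genes, and cells of 4000 to 8000 UMIs 56 lower ones. Several of these settings leave fewer detected cells, and otherwise the cause was not tested. Among ratios of at least 1.5-fold, directions changed for Cxcr5 (0.21 with at most 5% mitochondrial UMIs, 0.40 with Foxp3-positive cells alone), Hba-a2 (0.046 without other-lineage markers) and, in Foxp3-positive cells alone (89 of them detected), for Myc (-0.23), Id3 (0.11), Foxp3 (-0.090), Ccr2 (-0.20), Cxcr6 (-0.53) and Ifngr1 (-0.058). The Foxp3 value is no check of the Foxp3 ratio, because every cell of that setting was selected for a Foxp3 UMI. Nor is the Hba-a2 value a check of its ratio, because cells with Hbb-bs or Hba-a1 were left out there. Among smaller ratios given above, Il2rb (-0.30), Il2rg (-0.12) and Ctla4 (-0.32) turned in Foxp3-positive cells alone, Il2rb (-0.02) with at most 5% mitochondrial UMIs, Igfbp4 with 2 or more Il2ra UMIs (-0.85) and the same cluster mix (-0.17), and Mki67 under 5 settings, down to -1.07 when thinned. Of the other values for genes and clusters, 1446 moved by less than the counting error and 274 by more. The medians of the IL-2 and STAT5 responsive, Myc and ribosome biogenesis, NF-kB, ST2 tissue-type and follicular lists kept their direction under all 19 settings run for each. TMM or median-of-ratios factors changed no direction of a named ratio. Leaving out the follicular regulatory-like cluster, the cluster led by class II and C1q genes, or the top cell of each gene was added after seeing the data. The cycling cells left out in another setting were the cluster led by Ifitm1 and cell cycle genes. No paired analysis was possible because each genotype has 1 library. For genes near 20 CPM, ratios close to 1.5-fold were not well resolved at this depth.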
